A study of Mus musculus with 12 samples.

Results

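The metabotropic glutamate receptors are the G protein-coupled receptors through which glutamate slows, tunes or strengthens transmission at the synapses that use it. They fall into 3 groups. Group I, here Grm5, couples to Gq proteins and phospholipase C and sits mostly in the postsynaptic membrane, where Homer adaptors hold it. Group II, Grm2 and Grm3, and group III, Grm4, Grm6, Grm7 and Grm8, couple to Gi/o proteins, lower cyclic AMP and act in large part as presynaptic brakes on glutamate release. In the hippocampus, Grm2 is known from the mossy fiber terminals of dentate granule cells, Grm3 from astrocytes as well as neurons, and Grm7 from the active zones of nerve endings, whereas Grm6 is best known from the ON bipolar cells of the retina. These 7 genes were taken as every gene of that name with a non-control probe on the array, 7 of 29608 gene names and 10 of 39429 probes. Grm4 had 2 probes, Grm5 had 3 and the other 5 genes had 1 each.

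Their RNA level was measured in the hippocampus of 12 female mice about 12 weeks old, all killed in diestrus, 4 of each of 3 strains on the MRL background. MRL/lpr mice carry a loss-of-function mutation of Fas, the death receptor of lymphocytes, and develop a lupus-like disease with neuropsychiatric signs. Fn14koMRL mice are MRL/lpr mice that also lack Fn14 (Tnfrsf12a), the receptor of the cytokine TWEAK, throughout the body. They came from a backcross and were littermates of the MRL/lpr mice. MRL/MpJ mice are the non-lupus control of the same background, with neither change, and were bought from another source. Agilent arrays of 60-base probes were used with both dyes, each with 2 mice of a single strain, the odd-numbered mouse in the dye Cy3 and the even-numbered mouse in Cy5. Each strain had a slide and a scan of its own, so slide and strain cannot be told apart in any value below. The p-values given take the 2 mice of an array as independent. The spread they measure is that between these mice and between their arrays together.

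A level below is the background-subtracted intensity of a gene as a multiple of the median of its dye channel over the 10877 spots valid in all 12 samples, a spot being valid when its foreground was at least 2 times the local background and it had no outlier flag. It is read within a gene only, since levels of different probes are not comparable. The array of MRL/lpr mice 3 and 4 stood apart. Its median foreground over background was 1.93 and 1.73, compared with 4.42 to 12.6 on the other 5 arrays. Of its spots 25.2% and 19.6% were well above background, compared with 29.6% (MRL/MpJ mouse 2) to 68.1% elsewhere. Its pattern over genes differed as well. Log2 levels of genes with valid spots in all 12 samples correlated at 0.263 to 0.492 with the other mice, which correlated at 0.857 to 0.994 among themselves. Results are therefore given for all 12 samples and for the 10 samples outside that weak array, in which MRL/lpr is represented by 2 mice of 1 array. In the Cy5 channel of both MRL/MpJ arrays the negative-control spots were bright, 208 and 211 against 33.2 to 90.6 in the other 10 channels, which adds to the level of dim genes in MRL/MpJ mice 2 and 4. Tnfrsf12a, the targeted gene, lay at 0.151 to 0.189 in Fn14koMRL, below 0.241 to 0.439 in MRL/lpr and 0.283 to 0.629 in MRL/MpJ. It was well above background in all 4 Fn14koMRL mice, in 2 of 4 MRL/lpr mice and in all 4 MRL/MpJ mice. Whether its single probe lies in the deleted part is not known here.

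The labels name the tissue as hippocampus in 1 field and mention cortex in another, so both were checked against marker genes. Of 12 markers of hippocampal neurons, 12 were well above background in both MRL/lpr mice of the good array, compared with 8 in all 4 Fn14koMRL mice and 5 in all 4 MRL/MpJ mice. The rule is stricter for the last 2 strains, since it asks for 4 mice and not for 2. Every marker but Tdo2 was well above background in at least 2 Fn14koMRL mice and in at least 2 MRL/MpJ mice. Spink8, a marker of pyramidal cells, lay at 0.711 and 1.11 in these MRL/lpr mice, at 0.0260 to 0.0636 in Fn14koMRL and at 0.0192 to 0.161 in MRL/MpJ. Prox1, the defining factor of dentate granule cells, lay at 0.157 and 0.177, at 0.01 to 0.0237 and at 0.0188 to 0.125, where 0.01 is the floor that low signals were set to. The bright Cy5 channel of MRL/MpJ enters that count. Over 10 samples, 9 markers of the hippocampal list were tested. Against Fn14koMRL, 6 were higher in MRL/lpr and 0 lower (median log2 fold change 1.10), where 9.12% of all genes were called. Against MRL/MpJ, 5 were higher and 1 lower (median 1.32), where 15.7% of all genes were called. Not every marker moved this way. Wfs1 did not differ beyond its error between MRL/lpr and Fn14koMRL (-0.02, adjusted p = 0.981 in limma over 10 samples), and Nrgn, a neuronal calmodulin-binding protein, was lower in MRL/lpr than in MRL/MpJ (-1.48, adjusted p = 0.00482). The summed level of the list, most of it Nrgn, was 31.7 and 37.8 in these MRL/lpr mice, 22.5 to 33.9 in Fn14koMRL and 37.2 to 89.2 in MRL/MpJ. Of the 6 cortical markers, 6 were well above background in both of these MRL/lpr mice, 6 in all Fn14koMRL mice and 5 in all MRL/MpJ mice, and their summed level was 1.66 and 1.76 in these MRL/lpr mice, 3.24 to 4.12 in Fn14koMRL and 4.71 to 5.98 in MRL/MpJ. Prox1 was thus near the floor in all 4 Fn14koMRL mice and in the Cy3 mice of MRL/MpJ, yet well above background in 2 mice of each strain. Tdo2, another granule cell marker, was well above background in no mouse of either strain. C1ql2, also of the hippocampal list, was well above background in all 4 Fn14koMRL mice and in 2 MRL/MpJ mice. The cortical markers Cux2, Rorb and Tbr1 were lower in MRL/lpr than in MRL/MpJ, by -2.69, -2.36 and -2.04 on the log2 scale (limma over 10 samples, called at adjusted p 0.05), while Fezf2, Rspo1 and Scnn1a were not called. Choroid plexus markers were higher in MRL/lpr, 6 of 10 tested against MRL/MpJ and 5 against Fn14koMRL, with a summed level of 19.3 and 57.3 outside the weak array compared with 8.68 to 9.85 and 7.09 to 12.2. Of 5 microglial markers, P2ry12 was lower in MRL/lpr in both comparisons. In Fn14koMRL against MRL/MpJ over 10 samples, no choroid plexus or microglial marker was called, and Rorb alone of the cortical markers was lower. Of the hippocampal list, Wfs1 was higher there and C1ql2, Fibcd1 and Nrgn were lower. The part of these markers in the receptor differences described below was not tested. Differences in the number of cells of a type and in RNA per cell cannot be told apart in bulk tissue.

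The probes decide which stretch of each transcript was read, so those on which the results turn are shown, 30 bases of each, 5′ to 3′, as the array files give them, with positions on the mm9 build. Grm2 and Grm4 had the clearest differences between strains, and the probes of Grm4 and of Grm5 did not all give the same picture. Capitals mark the hexamers AATAAA or ATTAAA, which serve as polyadenylation signals near transcript ends. The files do not say which exon or untranslated part a probe lies in.
Grm2 probe A_55_P2171348, chr9:106547252-106547281, minus strand: aggaagttggctggagccttgcaataacac
Grm4 probe A_55_P2073682, chr17:27571557-27571586, minus strand: tgagaccttcaatgaggccaagcccatcgg
Grm4 probe A_55_P2010376, chr17:27559379-27559408, minus strand: gttgggagcaggcacgagggagcccctgca
Grm5 probe A_55_P2033425, chr7:95282611-95282640, plus strand: cttccaaaccaggaATTAAAcactcttttt
Grm5 probe A_55_P2112464, chr7:95279335-95279364, plus strand: actctcatcatcagagattacacgcagagt
Grm5 probe A_55_P2316783, chr7:94732759-94732788, plus strand: tgttcactcactgatccaaggctagccagc
Of the 10 member probes, 2 held a hexamer on the probe's own strand, this Grm5 probe with ATTAAA and the probe of Grm6 with AATAAA. Among all 39429 probes, 16.7% held either hexamer on that strand (AATAAA 12.6%, ATTAAA 4.56%) and 6.56% held the reverse complement of either. The match is a description of the sequence and no evidence of a used site. Grm5 probes A_55_P2033425 and A_55_P2112464 carried one transcript accession in the files, and A_55_P2316783, which lay upstream on the same strand, carried another.

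No receptor gene was past the threshold of adjusted p 0.05 when all 12 samples were fitted together. In the fit over the 8864 genes with valid spots in all samples, which holds Grm2, Grm5 and Grm7, 9.17% of all genes were called between MRL/lpr and MRL/MpJ, 3.98% between MRL/lpr and Fn14koMRL and 0.519% between Fn14koMRL and MRL/MpJ. Grm3, Grm4, Grm6 and Grm8 had no spot valid in all 12 samples and come from the fit over all 29608 genes with no filter, with anything dimmer than 1% of the channel median raised to that floor. There the shares called were 2.46%, 6.83% and 0.145%, and the median log2 fold change over all genes, most of them dim, was itself 0.21, 1.34 and -0.97. Leaving out Grm6, which was not well above background in any mouse, 3 of 6 members reached an unadjusted p under 0.05 for MRL/lpr against MRL/MpJ (Grm4, Grm7 and Grm8), 3 for MRL/lpr against Fn14koMRL (Grm2, Grm7 and Grm8) and 2 for Fn14koMRL against MRL/MpJ (Grm2 and Grm4). Of all genes, 36.6%, 36.2% and 15.3% did so in the filtered fit and 19%, 28.2% and 8.51% in the fit with no filter. By ranges of the 4 mice, Grm2, Grm4 and Grm5 did not overlap between Fn14koMRL and MRL/MpJ, 3 of 7 members compared with 10.7% of all genes. In the other comparisons 0 of 7 members had separate ranges, compared with 7.64% of genes for MRL/lpr against MRL/MpJ and 18.4% for MRL/lpr against Fn14koMRL.

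**Figure D1:**
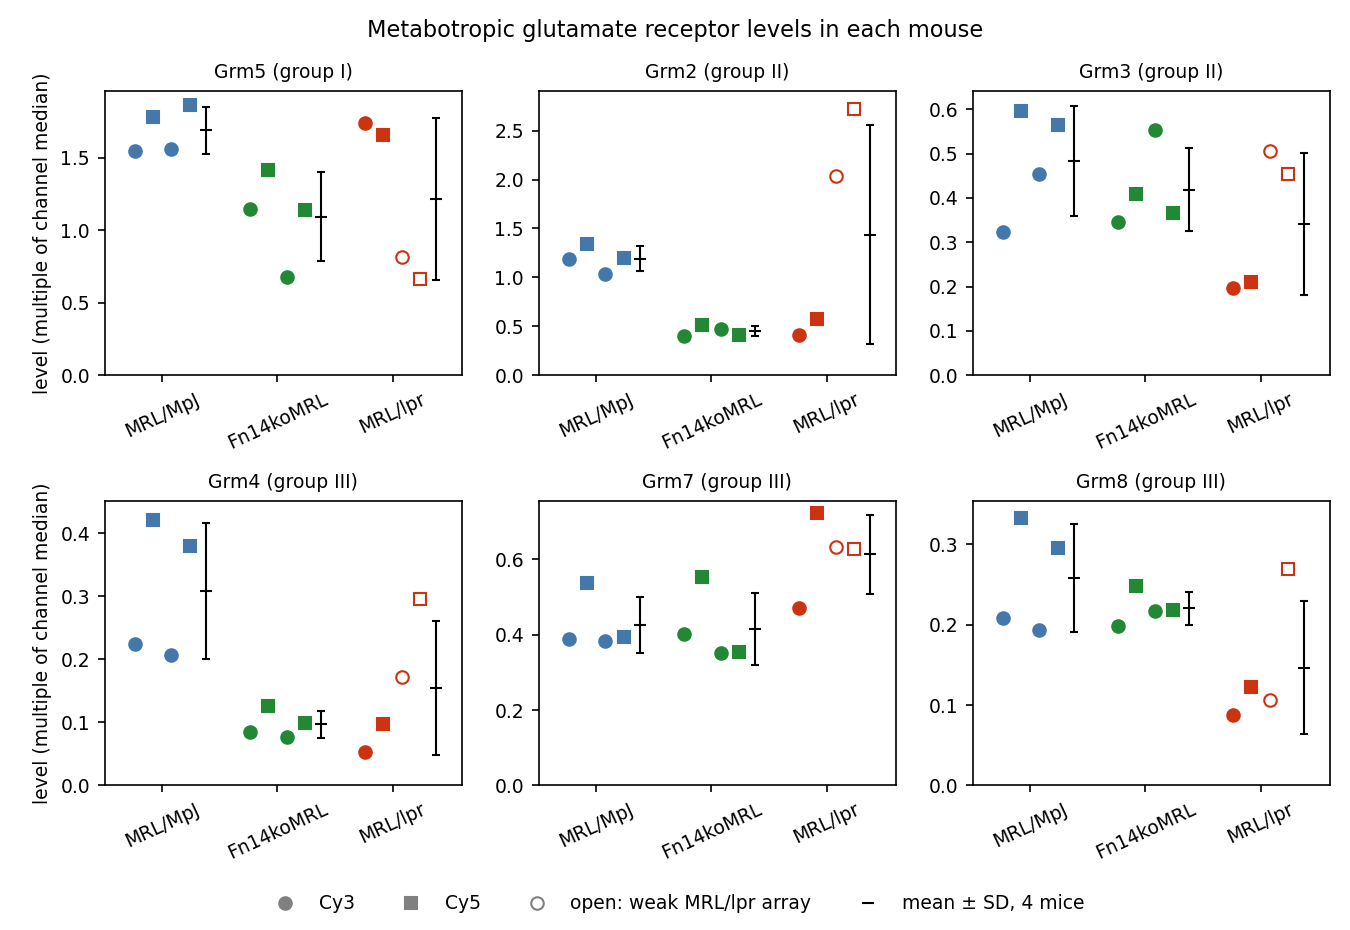
Level of 6 receptor genes in each mouse, as a multiple of the channel median, by strain. Circles are Cy3 and squares Cy5 mice, open symbols the 2 mice of the weak MRL/lpr array, and the bars beside them the mean ± SD of 4 mice. In Grm2 the 4 Fn14koMRL mice lie at 0.402 to 0.514, all below the 4 MRL/MpJ mice at 1.03 to 1.35.

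Without the weak array, receptor calls appeared in every comparison. With the filter applied to the other 10 samples, 17936 genes were tested, and all members but Grm6 were among them. MRL/lpr had 4 receptors called against MRL/MpJ, all lower (Grm2, Grm3, Grm4 and Grm8), compared with 15.7% of all genes called and 9.61% called lower. Fn14koMRL had 2 called against MRL/MpJ, both lower (Grm2 and Grm4), compared with 21.1% of genes called and 11.1% called lower. MRL/lpr had 2 called against Fn14koMRL, both lower (Grm3 and Grm8), compared with 9.12% of genes called and 5.03% called lower. The median log2 fold change of the 6 members was -1.08, -0.19 and -0.23 in these comparisons, beside -0.10, -0.07 and -0.04 over all genes tested. The first 2 comparisons share the MRL/MpJ mice, so their values are not independent. Removing the weak array widens the set of spots over which channels are centred, which by itself moves every log2 value by 0.25 for Fn14koMRL against MRL/MpJ, by 0.16 for MRL/lpr against MRL/MpJ and by -0.09 for MRL/lpr against Fn14koMRL.

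**Figure D2:**
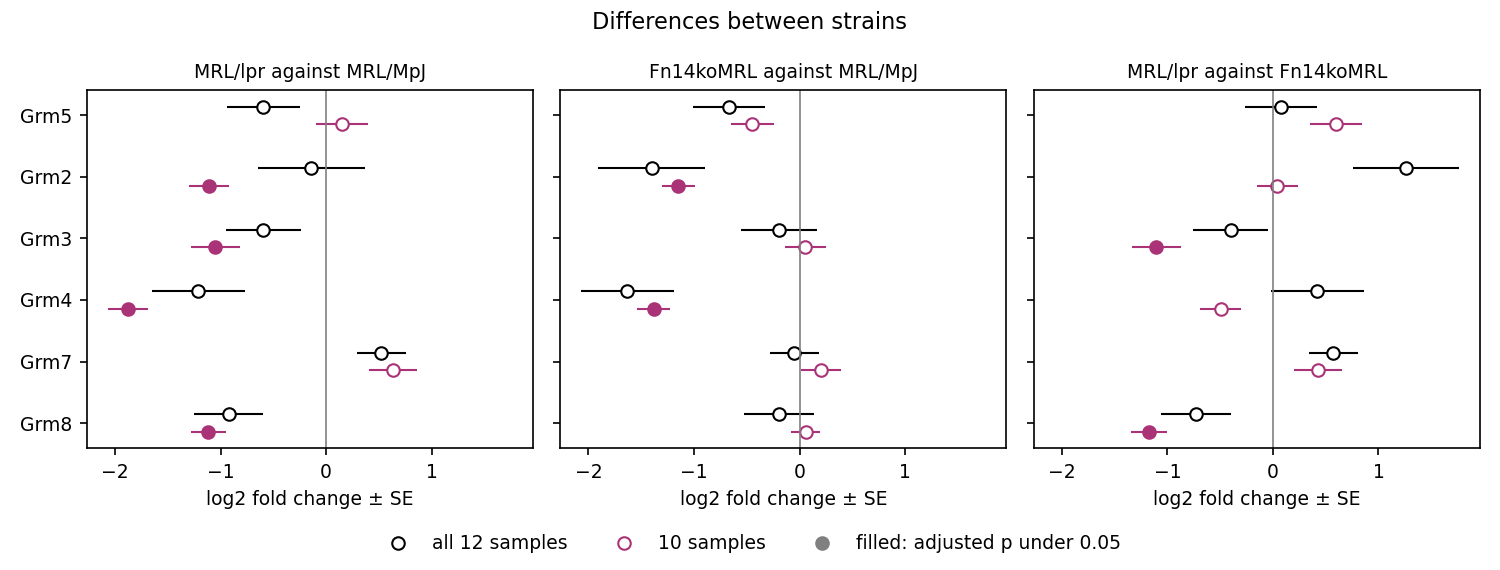
Log2 fold change ± SE of the 6 receptors in the fit to all 12 samples (black) and to the 10 samples outside the weak array (purple), with adjusted p under 0.05 filled. No black point is filled, and Grm2 and Grm4 are filled in both comparisons with MRL/MpJ when 10 samples are used.

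Grm5 is the group I member. Its level, the mean of its valid spots, was 1.74, 1.66, 0.814 and 0.661 in MRL/lpr mice 1 to 4, where the weak array gave the low pair. It was 1.15, 1.41, 0.675 and 1.14 in Fn14koMRL. In MRL/MpJ it was 1.55, 1.78, 1.56 and 1.87, above all 4 Fn14koMRL mice. The means ± SD were 1.22 ± 0.559, 1.09 ± 0.307 and 1.69 ± 0.160 (n = 4 each). Fn14koMRL differed from MRL/MpJ by -0.67 on the log2 scale (SE 0.34), with an adjusted p of 0.397 in limma and an exact two-sided permutation p of 0.0286, the smallest that 4 against 4 allows. Without the weak array it was past the threshold on the same spots (-0.67, SE 0.19, adjusted p = 0.0233). With all 3 probes and the same centring of channels it was so too (-0.70, SE 0.18, adjusted p = 0.00628 with no filter). With channels centred on the wider set of spots of the 10 samples it was not (-0.45, SE 0.20, adjusted p = 0.130). The call thus depends on the spots that centre the channels. With channels centred on the median of all probe spots it turned to 0.25. MRL/lpr against MRL/MpJ changed sign between the fits, from -0.59 (SE 0.34) over 12 samples to 0.15 (SE 0.25) over 10, and neither value was past the threshold.

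The probes of Grm5 had different patterns. A_55_P2033425, the one with ATTAAA, was well above background in 12 of 12 samples and set most of the gene's level. It read 3.43, 3.26, 1.20 and 0.830 in MRL/lpr, 2.22, 2.72, 1.29 and 2.20 in Fn14koMRL, and 2.92, 3.12, 2.97 and 3.36 in MRL/MpJ. On this probe the 2 MRL/lpr mice of the good array were within the MRL/MpJ range or above it, and all 4 Fn14koMRL mice lay below it. A_55_P2316783, well above background in 10 samples, read 0.0456 and 0.0603 in those MRL/lpr mice, 0.0608 to 0.110 in Fn14koMRL and 0.150 to 0.433 in MRL/MpJ. Here the good MRL/lpr array was at the bottom of the order and not at its top, and all 4 Fn14koMRL mice again lay below all 4 MRL/MpJ mice, while the weak array read 0.432 and 0.491 with neither mouse well above background. A_55_P2112464, well above background in 8 samples, read 0.119 and 0.159 in those MRL/lpr mice, 0.0416 to 0.139 in Fn14koMRL and 0.110 to 0.348 in MRL/MpJ, with overlapping ranges. None of the 3 was past the threshold in a fit of single probes.

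In group II, Grm2 was lower in Fn14koMRL than in MRL/MpJ in every mouse, and the 2 arrays of MRL/lpr contradicted each other. Grm2 encodes a presynaptic autoreceptor. It was well above background in 12 of 12 samples. Its level was 0.402, 0.514, 0.471 and 0.415 in Fn14koMRL and 1.18, 1.35, 1.03 and 1.20 in MRL/MpJ. These ranges were far apart for their small spread, an SD of 11.6% and 10.8% of the mean. The means ± SD were 0.450 ± 0.0521 and 1.19 ± 0.129 (n = 4 each), a 2.64-fold difference. On the log2 scale it was -1.40, with an SE of 0.51 in the fit to all 12 samples (adjusted p = 0.197) and an exact permutation p of 0.0286. The same contrast had an SE of 0.155 in the fit to the same spots without the weak array, which holds none of these 8 mice (adjusted p = 2.57e-04 in limma). Within Cy3 the difference was -1.35 and within Cy5 it was -1.46. Over 15 settings it stayed negative, from -1.49 to -0.48, and was past the threshold in 4.

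The MRL/lpr mice had Grm2 levels of 0.416 and 0.578 on the good array and of 2.04 and 2.72 on the weak one. The first pair lay at or just above the Fn14koMRL range and the second above every other mouse. The mean of 1.44 ± 1.12 (SD, n = 4) therefore describes neither array. Over 12 samples MRL/lpr differed from MRL/MpJ by -0.14 (SE 0.51, adjusted p = 0.848) and from Fn14koMRL by 1.26 (SE 0.51, adjusted p = 0.115). Over 10 samples the same differences were -1.11 (SE 0.19, adjusted p = 0.00414) and 0.04 (SE 0.19, adjusted p = 0.942).

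Grm3, the group II receptor that astrocytes also make, was low in the good MRL/lpr array. Its level was 0.196 and 0.211 there and 0.506 and 0.453 on the weak array, where 1 of the 2 mice was well above background. In Fn14koMRL it was 0.347, 0.409, 0.554 and 0.365 and in MRL/MpJ 0.323, 0.597, 0.453 and 0.564, ranges that overlap. Fn14koMRL and MRL/MpJ differed by -0.19 (SE 0.36, adjusted p = 0.712) over 12 samples and by 0.06 (SE 0.19, adjusted p = 0.842) over 10. MRL/lpr was lower than MRL/MpJ by -1.05 (SE 0.23, adjusted p = 0.0141) and lower than Fn14koMRL by -1.11 (SE 0.23, adjusted p = 0.0156) over 10 samples. Over all 12 these were -0.59 (SE 0.36, adjusted p = 0.428) and -0.40 (SE 0.36, adjusted p = 0.347). Of 9 astrocyte markers, Gfap and Gjb6 rose and S100b fell against MRL/MpJ in the fit to 10 samples, so the list did not move as a whole. The summed level of the list was 31.9 and 55.6 in these MRL/lpr mice, 46.0 to 53.3 in Fn14koMRL and 37.6 to 78.1 in MRL/MpJ.

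In group III, Grm4 had the lowest values relative to MRL/MpJ of all members. Grm4 encodes a presynaptic receptor known from the parallel fibers of the cerebellum and from striatal and thalamic terminals. As the mean of both probes its level was 0.0846, 0.127, 0.0767 and 0.0988 in Fn14koMRL and 0.225, 0.422, 0.207 and 0.380 in MRL/MpJ. The ranges did not overlap. It was 0.0527 and 0.0972 on the good MRL/lpr array, and 0.172 and 0.296 on the weak one, where it was well above background in neither mouse. Fn14koMRL differed from MRL/MpJ by -1.63 (SE 0.44) over 12 samples, with an adjusted p of 0.192 in limma and an exact permutation p of 0.0286. The difference was -1.42 within Cy3 and -1.84 within Cy5, the dye in which MRL/MpJ had bright negative controls. Over 10 samples the difference was -1.38 (SE 0.16, adjusted p = 8.90e-04). Over 15 settings it stayed negative, from -1.83 to -0.71, and was past the threshold in 4. MRL/lpr was 3.67-fold lower than MRL/MpJ over 10 samples, -1.88 on the log2 scale (SE 0.19, adjusted p = 2.02e-04), compared with -1.21 (SE 0.44, adjusted p = 0.153) over 12. MRL/lpr against Fn14koMRL had 0.42 (SE 0.44) over 12 samples and -0.50 (SE 0.19) over 10, past the threshold in neither.

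One of the 2 Grm4 probes carried this result. A_55_P2073682, well above background in 10 samples, read 0.0904, 0.169, 0.200 and 0.341 in MRL/lpr, 0.130, 0.202, 0.0889 and 0.150 in Fn14koMRL, and 0.386, 0.640, 0.359 and 0.606 in MRL/MpJ. All 8 MRL/lpr and Fn14koMRL mice lay below all 4 MRL/MpJ mice. Mouse 4 of the weak array, at 0.341, lay closest to them. In neither mouse of that array, both of which enter the fit below, was the probe well above background. In the fit of single probes to all 12 samples it was past the threshold in both comparisons, with -1.42 (SE 0.34, adjusted p = 0.0464) for MRL/lpr and -1.82 (SE 0.34, adjusted p = 0.0456) for Fn14koMRL against MRL/MpJ, where 2.38% and 0.271% of 39429 probes were called. The other probe, A_55_P2010376, was well above background in 7 samples and read 0.0150, 0.0255, 0.143 and 0.251 in MRL/lpr, 0.0394 to 0.0645 in Fn14koMRL, and 0.0642, 0.203, 0.0553 and 0.153 in MRL/MpJ. In MRL/MpJ its high values were those of Cy5, where it was not well above background, and it was not past the threshold in either comparison (adjusted p = 0.834 and 0.409).

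**Figure D3:**
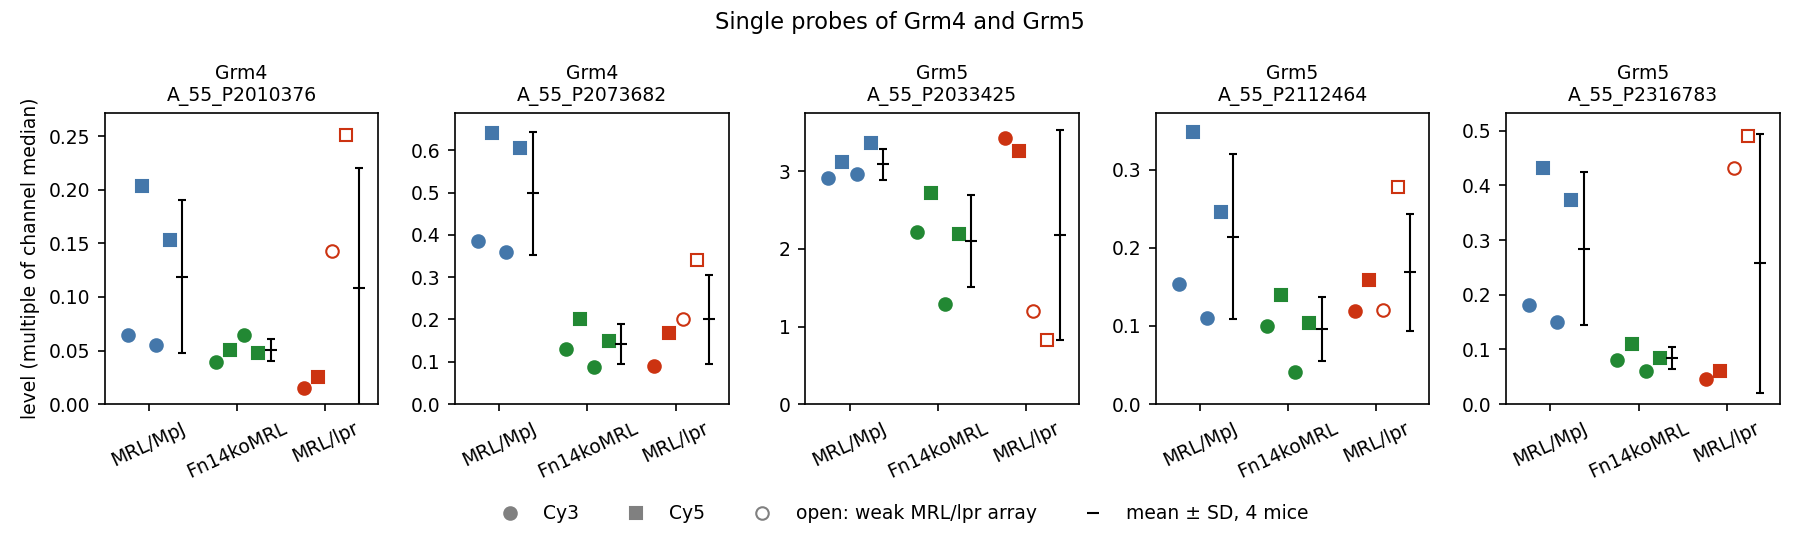
Levels of the 2 Grm4 probes and the 3 Grm5 probes in each mouse, as multiples of the channel median, with symbols as in the plot of gene levels. For Grm4 probe A_55_P2073682 the 8 MRL/lpr and Fn14koMRL mice reach at most 0.341 and the MRL/MpJ mice start at 0.359. The value of 0.341 is from the weak array, where this probe was well above background in neither mouse.

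Markers of brain regions known for Grm4 were set beside it. Of 11 thalamic markers 9 were tested over 10 samples. Tcf7l2, the transcription factor of thalamic neurons, and Ramp3 were lower in MRL/lpr than in MRL/MpJ, Prkcd and Zic1 were higher, and Lef1 and Tcf7l2 were lower in Fn14koMRL than in MRL/MpJ. The summed level of the list was 2.63 and 2.91 in MRL/lpr outside the weak array, 1.85 to 2.16 in Fn14koMRL and 1.97 to 3.91 in MRL/MpJ. Of 12 striatal markers, 6 were higher in Fn14koMRL than in MRL/MpJ and 0 lower over 10 samples, where 21.1% of all genes were called. The summed level of the striatal list was 10.96 to 28.3 in Fn14koMRL and 6.68 to 10.6 in MRL/MpJ. Drd1 was lower in MRL/lpr than in MRL/MpJ, and the summed level of the list was 5.94 and 5.99 in MRL/lpr outside the weak array. The part of these tissues in the Grm4 difference was not tested.

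Grm8, a group III receptor of presynaptic terminals with high affinity for glutamate, was low on the good MRL/lpr array. Its level was 0.0872 and 0.123 there and 0.107 and 0.269 on the weak array, in which it was well above background in neither mouse. It was 0.199, 0.248, 0.217 and 0.218 in Fn14koMRL and 0.209, 0.333, 0.194 and 0.296 in MRL/MpJ, ranges that overlap. Over 10 samples MRL/lpr was lower than MRL/MpJ by -1.12 (SE 0.17, adjusted p = 0.00182) and lower than Fn14koMRL by -1.17 (SE 0.17, adjusted p = 0.00225). Over 12 samples the values were -0.92 (SE 0.33, adjusted p = 0.144) and -0.73 (SE 0.33, adjusted p = 0.168). Fn14koMRL and MRL/MpJ differed by 0.06 (SE 0.14, adjusted p = 0.770) over 10 samples. With Agilent's processed signal, MRL/lpr against MRL/MpJ turned to 0.59.

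Grm7, the low-affinity group III receptor of active zones, went the other way from Grm8. Its level was 0.471, 0.724, 0.634 and 0.627 in MRL/lpr, with the mice of the weak array between those of the good one. It was 0.401, 0.554, 0.352 and 0.355 in Fn14koMRL and 0.389, 0.539, 0.383 and 0.395 in MRL/MpJ. Only 1 mouse of each of these strains, number 2 in Cy5, overlapped the MRL/lpr range. The means ± SD were 0.614 ± 0.105, 0.416 ± 0.0949 and 0.427 ± 0.0750 (n = 4 each). MRL/lpr differed by 0.52 (SE 0.23) from MRL/MpJ and by 0.57 (SE 0.23) from Fn14koMRL, with adjusted p of 0.128 and 0.116 in limma and an exact permutation p of 0.0571 for each. Over 10 samples the differences were 0.63 (SE 0.23, adjusted p = 0.0847) and 0.43 (SE 0.23, adjusted p = 0.297), so Grm7 was past the threshold in neither fit. With channels centred on the median of all probe spots the differences over 12 samples turned to -0.0151 and -0.88.

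Grm6 was not well above background in any of the 12 samples, so no fold is given. Its probe lay at the floor of 0.01 in 3 Fn14koMRL mice and in the Cy3 mice of the good MRL/lpr and both MRL/MpJ arrays. It read 0.100 and 0.0905 in the Cy5 mice of MRL/MpJ, whose negative-control spots were also bright, and 0.276 in MRL/lpr mouse 4 of the weak array. These values set no level for Grm6.

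The composite criterion of the study's methods asks for an expression ratio beyond a threshold CUT, which is computed from the variability in both strains, and for a heteroscedastic test past 0.05 without adjustment. It was met by 2 members, both in Fn14koMRL against MRL/MpJ, where 5.95% of the filtered genes and 2.75% of all genes met it. Grm2 had a ratio of -2.64 (a 2.64-fold fall) against a CUT of 1.48, and Grm4 had -3.19 against 2.04. Grm5 had -1.54 against 1.84 and did not meet it. No member met it in the comparisons with MRL/lpr, where 4.78% of filtered and 2.35% of all genes met it against MRL/MpJ and 3.85% and 3.05% against Fn14koMRL, and where CUT ran as high as 3.40 for Grm2 because its variability over both arrays entered it.

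The genes through which the receptors signal were taken as 4 lists, chosen with earlier results of these data known, and counted in the filtered fits. Of the 17 genes of group II and III transduction (Gi/o proteins, adenylyl cyclases, GIRK channels and RGS proteins), 14 were tested over 12 samples and 5 were lower in MRL/lpr than in MRL/MpJ, none higher, compared with 5.71% of all 8864 genes called lower. With array as a random block 7 of all genes were called in this comparison, none of them in the list. The 5 genes of the list called lower in the fit with no such block were Adcy2, Gnb1, Gng3, Rgs4 and Rgs7. Adcy2 is an adenylyl cyclase, and Gnb1 and Gng3 are subunits of the G protein beta-gamma dimer. Rgs4 and Rgs7 speed up the shut-off of G proteins. The median log2 fold change of the list was -0.73, beside -0.01 over all 8864 genes. Rgs4 fell by 2.46 (SE 0.31, adjusted p = 0.00251) and Rgs7 by 1.28 (SE 0.22, adjusted p = 0.00902). Over 10 samples the same 5 genes were called lower, compared with 9.61% of all genes, with Rgs4 at -1.82 (SE 0.27, adjusted p = 0.00168). Gnb1 and Gng3 were then smaller in size, at -0.61 and -0.74 compared with -1.76 and -2.31 over 12 samples. Over 12 samples Rgs4 was also lower in MRL/lpr than in Fn14koMRL, by -1.94 (SE 0.31, adjusted p = 0.0101), the single call of the list in that fit. Over 10 samples Rgs4 (-1.56, adjusted p = 0.00587) and Rgs7 (-0.86, adjusted p = 0.0399) were lower and Kcnj3 was higher (0.78, adjusted p = 0.0363). In Fn14koMRL against MRL/MpJ no gene of the list was called over 12 samples, and over 10 samples Kcnj3 (-1.20, SE 0.16, adjusted p = 0.00187) and Kcnj6 (-1.61, SE 0.25, adjusted p = 0.00322) were lower. Both encode GIRK channels, which Gi/o-coupled receptors open.

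Of the 11 genes of group I transduction, 9 were tested over 12 samples and none was called between MRL/lpr and MRL/MpJ. Homer3, an adaptor of group I receptors, was higher in MRL/lpr than in Fn14koMRL by 2.26 (SE 0.36, adjusted p = 0.0101). Over 10 samples Plcb4, a phospholipase C, was lower in MRL/lpr by -1.83 (SE 0.20, adjusted p = 3.34e-04) against MRL/MpJ and by -1.97 (SE 0.20, adjusted p = 3.76e-04) against Fn14koMRL, whereas over 12 samples it had 1.21 and 0.16 (SE 1.04) and was not called. Homer1 was lower as well, by -1.02 and -0.81 (SE 0.19, adjusted p = 0.00609 and 0.0257), and was not called over 12 samples (-0.97 and -0.28, SE 0.38). Calls of this list thus went in both directions in each strain comparison over 10 samples. They were 1 higher and 3 lower of 11 tested for MRL/lpr against MRL/MpJ, where 15.7% of all genes were called. For MRL/lpr against Fn14koMRL they were 2 higher and 2 lower (9.12% of all genes called). For Fn14koMRL against MRL/MpJ they were 1 higher and 2 lower (21.1%).

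**Figure D4:**
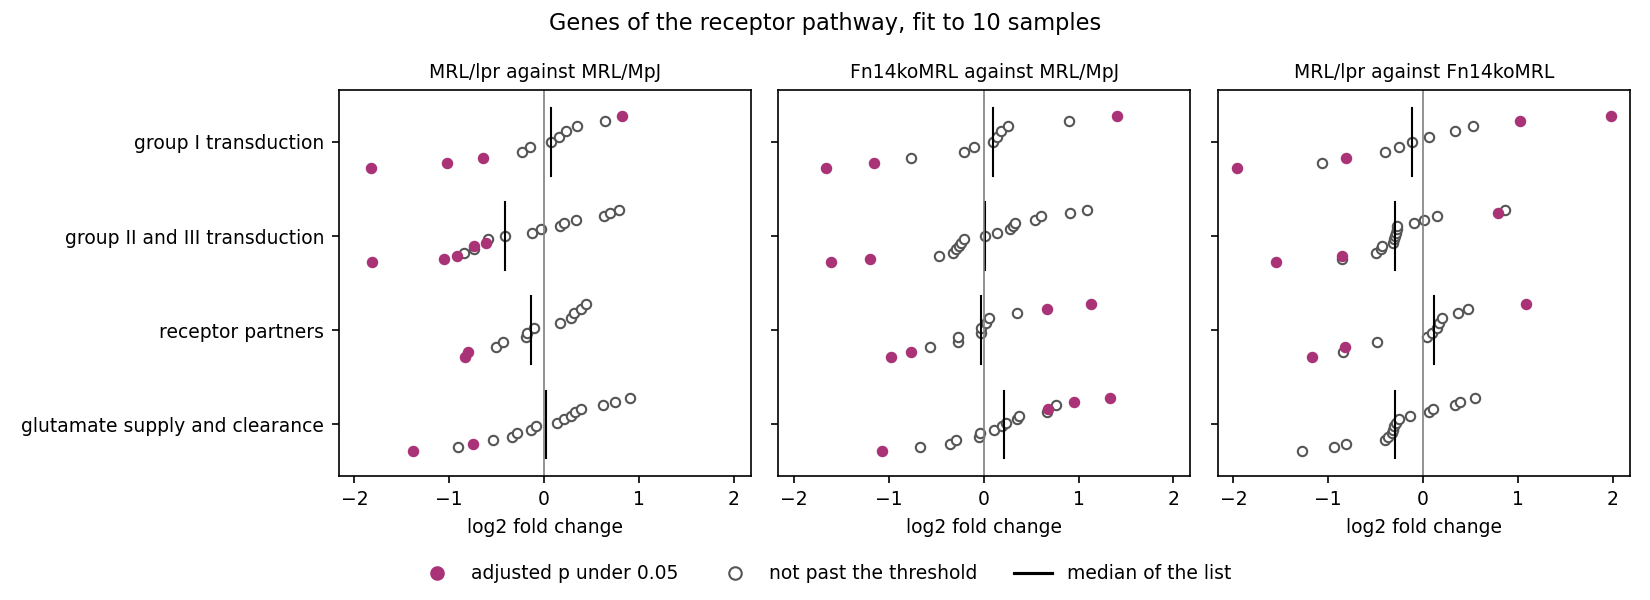
Log2 fold change of each gene of 4 pathway lists in the fit to 10 samples, with genes past adjusted p 0.05 filled and the median of each list as a black line. In MRL/lpr against MRL/MpJ, 5 genes of group II and III transduction are filled, all left of 0.

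Of the 13 receptor partners, 8 were tested over 12 samples. Grk2, a kinase that desensitizes receptors, and Cyth2, an ARF exchange factor, were lower in MRL/lpr than in MRL/MpJ, by -1.80 (SE 0.46, adjusted p = 0.0353) and -1.07 (SE 0.28, adjusted p = 0.0412). Over 10 samples Grk2 was at -0.80 (adjusted p = 0.0370) and Cyth2 lost its call at -0.44 (adjusted p = 0.0844). Grasp, a scaffold that binds group I receptors, was lower in MRL/lpr than in Fn14koMRL by -2.24 (SE 0.54, adjusted p = 0.0433) over 12 samples and by -1.17 (SE 0.23, adjusted p = 0.0103) over 10. Elfn2, a postsynaptic protein that binds group III receptors across the synaptic cleft, was tested over 10 samples and was lower than MRL/MpJ in MRL/lpr (-0.84, SE 0.20, adjusted p = 0.0207) and in Fn14koMRL (-0.98, SE 0.17, adjusted p = 0.00485). Pick1, which binds the tail of Grm7, was lower in Fn14koMRL than in MRL/MpJ by -0.77 (SE 0.20, adjusted p = 0.0243) and higher in MRL/lpr than in Fn14koMRL by 1.08 (SE 0.24, adjusted p = 0.0213). Arrb1 (1.14, SE 0.33, adjusted p = 0.0345) and Grasp (0.66, SE 0.18, adjusted p = 0.0305) were higher in Fn14koMRL than in MRL/MpJ over 10 samples. Calls of this list in that comparison were thus 2 higher and 2 lower of 12 tested, where 21.1% of all genes were called.

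Of the 16 genes of glutamate supply and clearance, 12 were tested over 12 samples. Slc17a7, which fills synaptic vesicles with glutamate in cortical and hippocampal neurons, was the call of this list against MRL/MpJ, lower in MRL/lpr by -2.27 (SE 0.36, adjusted p = 0.00704). Over 10 samples it was lower in MRL/lpr by -1.39 (SE 0.18, adjusted p = 7.52e-04) and in Fn14koMRL by -1.07 (SE 0.14, adjusted p = 0.00174), the direction of Grm2 and Grm4. Slc1a2, the main glutamate transporter of astrocytes, was lower in MRL/lpr than in MRL/MpJ by -0.75 (SE 0.18, adjusted p = 0.0218) over 10 samples. Glud1, Gls2 and Slc38a2, which make or carry glutamate and glutamine, were higher in Fn14koMRL than in MRL/MpJ over 10 samples, by 0.95 (SE 0.21, adjusted p = 0.0136), 1.33 (SE 0.32, adjusted p = 0.0180) and 0.68 (SE 0.20, adjusted p = 0.0377). In MRL/lpr against Fn14koMRL, Glud1 was lower by -1.06 (SE 0.26, adjusted p = 0.0454) over 12 samples and no gene of the list was called over 10.

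For each receptor that was well above background in at least 9 of 12 samples, the 2 genes with the most similar pattern over the 10 samples outside the weak array are given as a description. There were 9407 candidate genes, and the 10 points share 3 strains and 5 arrays. For Grm2 they were Prpmp5 and Polr2a (Pearson r = 0.99 each). For Grm4 they were Tkfc and Pcdh7 (r = 1.00 each), and for Grm8 Rgs6 and Wdyhv1 (r = 0.99 each). For Grm3 they were Ccl27a and Rims2 (r = 0.98 each). For Grm5 they were Dnajb14 (r = 0.98) and Ets2 (r = 0.97). For Grm7 they were Copb2 (r = 0.93) and a transcript with no symbol in the files (r = 0.93). With the weak array included r was 0.95 and 0.92 for the genes of Grm2 but -0.49 for Copb2, 0.28 for Ccl27a and 0.54 for Tkfc.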

How the data were processed

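The authors co-hybridized Cy3- and Cy5-labelled RNA of 2 mice of a strain on each of 6 arrays and extracted spots with Agilent Feature Extraction 12.1, per the file headers. The deposited intensity is linear, per spot and dye, and not normalized between channels. Here, the local median background was subtracted from the mean foreground, spots valid in all 12 samples were kept (10877 spots, 8864 genes), and the median of these spots set the scale of each channel. Repeated spots were averaged into probes, and probes into genes, before taking logs. On log2 levels, a linear model with dye as a covariate was fitted to all 12 samples by limma 3.58.1 under R 4.3.3 (eBayes with trend), with Benjamini-Hochberg adjustment over all genes and a threshold of 0.05. Members without such spots came from the same fit with no filter (floor 1% of the channel median). Two-sided exact permutation tests of 4 against 4 mice were added, and Python 3.11.15 with scipy 1.17.1 was used for other steps. The number of arrays and signal over background limit the precision. The fit was tested on simulated data with noise drawn independently for each sample. That simulation leaves out the correlation between mice of an array, estimated at 0.71 over 12 samples, so it does not cover its effect on p-values.

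Named were all 7 members, at most 4 called genes per list and comparison by adjusted p, and the 2 genes most like each member. Other genes were named after their values were known. Single values of a few list genes are not reported here, although the counts include them. The members and lists were chosen with earlier results of these data known. List symbols absent from the files were matched through synonyms of the GRCm38.p6 gene table. Alternatives were Agilent's processed signal, normexp, quantile normalization, other medians, floors and filters, array as a random block, no dye term, a replicate block, array weights, the methods' t-test, and samples left out. The fit to 10 samples, its form with array as a random block, and a background from negative-control spots were chosen after seeing the data. Replicate numbers did not pair the mice: correlations of residuals between same-numbered mice of different strains ran from -0.64 to 0.37.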

Additional observations from a re-analysis of the deposited data

Results flagged for a closer look

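In each group of 4 mice, the gap between the highest or lowest mouse and its nearest neighbour was divided by the range of the group and compared with Dixon's critical value for groups of 4. There were 21 such groups (7 genes in 3 strains), and chance alone passes about 1 in 20. Grm6 in MRL/lpr had a ratio of 0.963, set by mouse 4 of the weak array at 0.276. Grm6 in Fn14koMRL had a ratio of 1, with 3 mice at the floor of 0.01 and mouse 4 at 0.0137. Grm6 was not well above background in any of these mice. Grm7 in MRL/MpJ had a ratio of 0.9226, set by mouse 2 at 0.539, a Cy5 mouse whose negative-control spots were bright.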

How the results depend on the processing

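Over 12 samples 813, 353 and 46 genes and 0, 0 and 0 receptors were called in MRL/lpr against MRL/MpJ, MRL/lpr against Fn14koMRL and Fn14koMRL against MRL/MpJ, the order kept below. Genes called changed by over 1.5 times, with the cause not tested, to 52, 3261 and 0 with the median over all probe spots; to 7, 4 and 0 with array as a random block; to 506, 179 and 0 with the replicate number as a block, although the numbers pair no mice; to 1604, 638 and 2484 without the weak array; to 2818, 1636 and 3785 over 10 samples with their own filter; to 5135, 2847 and 6412 with array as a random block added, where the estimated correlation was negative; to 1450, 903 and 3407 with array weights, whose fit did not converge well; to 2394, 198 and 14 with a negative-control background; and to 1403, 1155 and 1493 by the methods' t-test without adjustment or 0, 0 and 8 with it. Spots well above background in all 12 gave 398 and 224 in the first 2 comparisons. Agilent's processed signal gave 647 and no filter 2022 in MRL/lpr against Fn14koMRL, quantile normalization gave 191 and 3 in MRL/lpr and MRL/MpJ against Fn14koMRL, and a 5% floor gave 26 and no dye term 19 in Fn14koMRL against MRL/MpJ. Receptors called became 4, 2 and 3 without the weak array, 4, 2 and 2 over 10 samples, 5, 2 and 2 with the array block added, 1, 1 and 3 with array weights, and 1, 1 and 3 by the unadjusted t-test. In the first 2 comparisons they became 1 and 1 with the processed signal, 2 and 1 with quantile normalization and 1 and 2 with the median over all probe spots.

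Leaving out 1 mouse gave 126 to 3467, 40 to 4304 and 0 to 126 genes and 0 to 1 receptors called, the call being in MRL/lpr against Fn14koMRL without MRL/lpr mouse 1 or 2. Of 288 log2 fold changes of single receptors under other settings, 206 kept direction and side of the threshold, 44 became called and 38 changed sign, and of 216 with a mouse left out, 207, 2 and 7 did so. In MRL/lpr against MRL/MpJ, Grm2 turned to 0.42 with the processed signal and 0.27 as the ratio of means, Grm5 to 0.0659 with the processed signal, 0.013 without the weak array, 0.0028 with array weights and 0.15 over 10 samples, Grm7 to -0.0151 with the median over all probe spots, and Grm8 to 0.59 with the processed signal. In MRL/lpr against Fn14koMRL, the median over all probe spots turned Grm2 to -0.19, Grm4 to -1.04, Grm5 to -1.38 and Grm7 to -0.88. Grm3 turned to 0.25 with array weights, Grm4 to -0.48 with quantile normalization, -0.41 without the weak array, -0.45 with the negative-control background and -0.50 over 10 samples, and Grm5 to -0.16 with spots well above background and -0.0477 with the negative-control background. In Fn14koMRL against MRL/MpJ, the median over all probe spots turned Grm3 to 0.72, Grm5 to 0.25, Grm7 to 0.87 and Grm8 to 0.72, and the 10 samples turned Grm3 to 0.0567, Grm7 to 0.20 and Grm8 to 0.0587. The processed signal turned Grm3 to 0.19, Grm7 to 0.46 and Grm8 to 0.63, quantile normalization Grm7 to 0.0604 and Grm8 to 0.0766, and the negative-control background Grm7 to 0.21 and Grm8 to 0.45. With a mouse left out, the values with a sign change ran from -0.5968 to 0.3278 for Grm2 (MRL/lpr against MRL/MpJ), from -0.198 to 0.3971 for Grm5 (MRL/lpr against Fn14koMRL) and from -0.1637 to 0.0776 for Grm7 (Fn14koMRL against MRL/MpJ). The low signal of the weak array limits Grm4 and Grm8 in MRL/lpr, where neither of its mice was well above background.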
